A study of Mus musculus with 4 samples.

Results

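Interferon-responding neutrophils were the neutrophils of healing mouse skin in which several interferon-induced transcripts were detected in the same cell. A neutrophil was a cell with at least 1 UMI (a counted RNA molecule) of at least 4 of the 8 genes *Csf3r*, *Cxcr2*, *S100a8*, *S100a9*, *Retnlg*, *G0s2*, *Mmp9* and *Hdc*, and with none of *Cd3g*, *C1qa* and *Mcpt8*, which mark T cells, macrophages and basophils. It was called interferon-responding when 2 or more of the 5 genes *Ifit1*, *Ifit2*, *Ifit3*, *Rsad2* and *Oasl1* were also detected. The rule selected 104 of 977 neutrophils, among 6443 cells kept of 7178 in the files. Since these 16 genes chose the cells, their levels are given as a description, with no test between the interferon-responding and the other neutrophils.

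The cells came from skin around full-thickness punch wounds of C57/BL6j mice aged 6 weeks, taken 7 days after wounding. The 2 libraries labelled Control came from mice injected around the wound with PBS, and the 2 labelled hucMSC-Exo from mice given 100 µg of hucMSC-Exosomes, vesicles released by mesenchymal stem cells of human umbilical cord, both given repeatedly until then. Each library was 1 mouse, so the spread between the 2 libraries of a group joins mouse, dissociation and library. Values below follow the order of the libraries, first Control 1, then Control 2, hucMSC-Exo 1 and, last, hucMSC-Exo 2. The groups were taken from the sample titles. Letters in the matrix names (c and t, each numbered 1 and 2) split the same 4 libraries another way, so each direction between the groups rests on the titles. The study reports many more neutrophils in its hucMSC-Exosomes group than in its control group. Under the rule used here, Control 1 held 49 neutrophils, hucMSC-Exo 1 held 91, Control 2 held 321 and hucMSC-Exo 2 held 516. Low and high counts thus followed the replicate number and not the title. Whether the titles or the letters give the treatment was not tested. The tissue label names gut, whereas the cell type label and the study's methods name skin. The gut genes *Vil1*, *Lgr5*, *Fabp2* and *Lgals4* were each found in at most 1.05% of the kept cells of a library, and the skin keratin *Krt14* in 71.6% to 87.2%, neutrophils included.

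Type I interferons signal through the receptor chains IFNAR1 and IFNAR2 and the kinases JAK1 and TYK2 to a complex of transcription factors that includes IRF9. This complex binds interferon-stimulated response elements near the start of many genes, whose products block viral RNA, tag or degrade proteins and raise antigen presentation. Neutrophils carry the receptor and can switch on this programme in sterile inflammation as well as in infection.

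The interferon response motif was looked for in the promoters of the genes that chose the cells and of those that rose with them. The motif was GAAANNGAAA on either strand and the window ran from 250 bases before to 50 bases after the annotated start in the RefSeq promoter table (build GRCm38.p6). Overlapping matches were counted separately. The sequences below, the 250 bases before the start, belong to 3 of the genes of the rule and to 3 of the genes that rose most. All of these held a match. *Herc6*, *Gm13822*, *Xaf1* and *Trafd1*, also among the largest rises, had an entry without a match and are not shown. They are written 5′ to 3′ along the gene's own strand with the matches in capitals. *Ifit1* and *Ifit3* encode proteins that bind foreign RNA and *Ifit3b* is a close paralog of *Ifit3*. *Rsad2* encodes viperin, *Isg15* a ubiquitin-like modifier and *Ddx60* a helicase of RNA sensing.
*Ifit1*: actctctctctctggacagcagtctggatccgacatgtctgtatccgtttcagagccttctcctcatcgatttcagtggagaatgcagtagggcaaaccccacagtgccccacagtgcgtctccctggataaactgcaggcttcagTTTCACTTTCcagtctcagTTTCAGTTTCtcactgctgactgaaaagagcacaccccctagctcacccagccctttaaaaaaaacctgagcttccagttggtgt
*Ifit3*: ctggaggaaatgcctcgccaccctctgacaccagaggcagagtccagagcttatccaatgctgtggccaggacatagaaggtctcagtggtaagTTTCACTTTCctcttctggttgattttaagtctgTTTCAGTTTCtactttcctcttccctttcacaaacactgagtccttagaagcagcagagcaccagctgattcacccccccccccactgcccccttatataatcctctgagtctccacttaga
*Ifit3b*: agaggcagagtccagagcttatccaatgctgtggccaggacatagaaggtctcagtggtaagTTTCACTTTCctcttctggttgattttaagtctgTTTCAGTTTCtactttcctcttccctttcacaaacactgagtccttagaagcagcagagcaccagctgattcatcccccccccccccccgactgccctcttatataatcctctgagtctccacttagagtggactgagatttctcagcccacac
*Rsad2*: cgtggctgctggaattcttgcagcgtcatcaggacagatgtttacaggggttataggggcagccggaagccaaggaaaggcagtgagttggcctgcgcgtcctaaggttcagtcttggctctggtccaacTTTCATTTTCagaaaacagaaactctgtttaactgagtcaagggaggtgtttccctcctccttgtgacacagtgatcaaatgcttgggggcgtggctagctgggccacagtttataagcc
*Isg15*: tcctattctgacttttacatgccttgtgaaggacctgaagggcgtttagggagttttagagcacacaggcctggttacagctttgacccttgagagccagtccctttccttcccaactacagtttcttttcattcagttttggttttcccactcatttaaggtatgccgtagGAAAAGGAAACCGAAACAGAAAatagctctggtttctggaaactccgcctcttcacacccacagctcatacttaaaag
*Ddx60*: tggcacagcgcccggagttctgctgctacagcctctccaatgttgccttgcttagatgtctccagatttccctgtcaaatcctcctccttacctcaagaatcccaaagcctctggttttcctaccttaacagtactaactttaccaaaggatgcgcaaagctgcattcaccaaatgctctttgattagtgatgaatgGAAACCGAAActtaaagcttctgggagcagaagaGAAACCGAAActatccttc

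The *Ifit1* window is chr19:34640639-34640888 on the plus strand and held 2 matches, which began 104 and 85 bases before the start. That of *Ifit3*, chr19:34583279-34583528, and that of *Ifit3b*, chr19:34607707-34607956, both on the plus strand, held the same pair of matches, 156 and 122 bases before the start of *Ifit3* and 188 and 154 bases before that of *Ifit3b*. On the minus strand, *Rsad2* (chr12:26456453-26456702) had 1 match that began 120 bases before the start. *Isg15* (chr4:156200819-156201068, minus strand) had 3 overlapping matches, the first 78 and the last 66 bases before the start, and *Ddx60* (chr8:61927837-61928086, plus strand) had 2, at 53 and 19 bases. Of the 5 interferon genes of the rule, 3 held a match, and none was found in the windows of *Ifit2* and *Oasl1*. Of the 42 genes that rose in interferon-responding neutrophils (described below), 34 had an entry in the table and 18 of these held a match (52.9%). Of the genes called lower, 4 had an entry and 1 held a match. Among the genes tested without being called the motif was found in 54 of 1247 (4.33%). Over the whole table it was found in 1079 of 27025 genes (3.99%), or 1131 of 32851 windows (3.44%). A match is a stretch of letters and not a site shown to be bound.

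**Figure D1:**
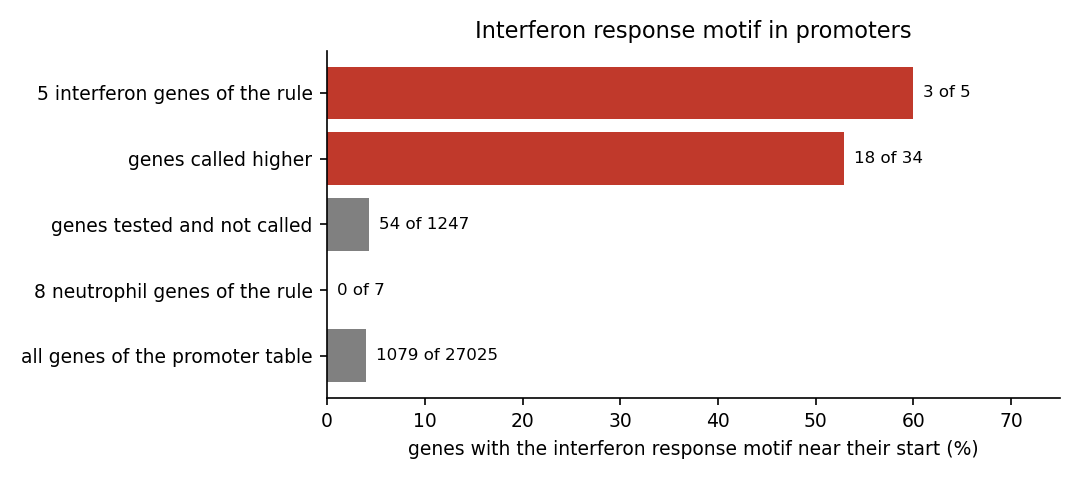
Share of genes (x axis, %) with at least 1 match of the interferon response motif within 250 bases before and 50 after an annotated start, for 5 sets of genes, with the number of genes beside each bar. Matches were found in 18 of 34 genes that rose in interferon-responding neutrophils and in 54 of 1247 genes that were tested and not called.

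The genes of the rule describe how the cells were told apart. *Rsad2* was detected in 94 of the 104 interferon-responding neutrophils, *Ifit1* in 68, *Oasl1*, a member of the oligoadenylate synthetase-like family, in 62, *Ifit3* in 53 and *Ifit2* in 17. The most frequent pairs were *Ifit1* with *Rsad2* in 58 cells and *Rsad2* with *Oasl1* in 56. Over all 977 neutrophils, 712 had none of the 5 genes, 161 had 1, 46 had 2, 36 had 3, 16 had 4 and 6 had all 5. The cut therefore separated the 161 cells with 1 gene from the 46 cells with 2.

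Summed over the interferon-responding neutrophils, *Rsad2* was counted at 2976, 1932, 2337 and 1945 CPM (counts scaled to an equal total of UMIs) in the 4 libraries, against 222, 96.3, 15.8 and 118 in the other neutrophils. *Ifit1* stood at 1222, 704, 1039 and 708 CPM in the same order, and at 0, 15.4, 5.26 and 12.1 in the other neutrophils. The summed levels of the classes did not overlap in these genes, which the rule used. Single cells did overlap, since some interferon-responding cells lacked one of the genes and some of the others held it. To measure the same genes on counts that had not chosen the cells, the UMIs of each cell were divided at random into 2 sets, cells were chosen on the first set and the genes were measured on the other. On the held-out set *Ifit1* was higher in the chosen cells by 3.99 on the log2 scale, *Ifit3* by 3.93, *Rsad2* by 3.30 and *Oasl1* by 3.27, and *Ifit2* did not pass the filter on low counts. These are molecules of the same cells, so the values are a description too.

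The label of neutrophil was checked on the 4 neutrophil markers that the rule did not use, *Ly6g*, *Trem1*, *Il1r2* and *Clec4d*. They summed to 4623, 5811, 6232 and 6206 CPM in the interferon-responding cells and to 4139, 5370, 4639 and 5469 CPM in the other neutrophils, whereas the kept cells that were not neutrophils held 169 to 519 CPM. *Clec4d*, a lectin receptor of myeloid cells, was detected in 96.2% of the interferon-responding cells and in 22.2% of the cells outside the neutrophil gate. *Ly6g*, a mature neutrophil surface marker, was sparse, with 6 UMIs in the 104 cells and none in Control 1 and hucMSC-Exo 1. Summed over all 12 neutrophil markers, those of the rule included, Control 1 was lower in both classes, at 39751 CPM in the 9 interferon-responding and 69181 CPM in the 40 other neutrophils, whereas the other 3 libraries held 116784 to 138667 CPM in either class.

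The listed markers of other cell types were present at low levels in both classes. The 14 macrophage and monocyte markers summed to 1026 CPM in the interferon-responding and 1297 CPM in the other neutrophils (library ranges 903 to 1298 and 1073 to 1415), with *C1qa*, excluded by the rule, and *C1qc* at 0 in the former. At least 1 of 6 macrophage transcripts (*Csf1r*, *Adgre1*, *C1qb*, *C1qc*, *Ms4a7*, *Apoe*) was found in 62 of 104 interferon-responding cells (59.6%) and in 484 of 873 others (55.4%). Outside these marker lists, *Arg1* stood at 540 CPM in the interferon-responding cells of Control 2 and at 5.58 CPM in the others. *Nos2* was at 540 against 26.5 CPM there, and at 72.0 against 65.1 CPM in hucMSC-Exo 2. *Arg1* had 0 UMIs in the interferon-responding cells of the other libraries. Both genes were chosen after their values were seen, and the source of this RNA was not tested. The 9 T and NK cell markers summed to 16 and 14 CPM, and B cell, basophil, mast cell and erythrocyte markers to 0 in the interferon-responding cells. Depth was alike, with a median of 2108.5 UMIs per interferon-responding cell (1002 to 8607) and 2128 per other neutrophil. None of the 104 cells and 26 of the 873 others lay among the 10% of kept cells with the highest doublet scores, and none of the 6 barcodes that occurred in more than 1 library belonged to an interferon-responding cell. Of 17 cells that met the neutrophil gate but had over 3000 genes, 4 met the interferon rule and were left out with the rest.

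The first comparison concerned how many neutrophils were interferon-responding in each mouse. In the control group they were 9 of 49 neutrophils of Control 1, or 18.4% (exact 95% interval 8.76% to 32.0%), and 25 of 321 of Control 2, or 7.79% (5.10% to 11.3%). In the hucMSC-Exosomes group they were 2 of 91 of hucMSC-Exo 1, or 2.20% (0.267% to 7.71%), and 68 of 516 of hucMSC-Exo 2, or 13.2% (10.4% to 16.4%). The groups overlapped, since the 2 libraries of the hucMSC-Exosomes group were the lowest and the second highest.

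Control libraries averaged 13.1% ± 7.48 (SD, n = 2) and hucMSC-Exosomes libraries 7.69% ± 7.76 (SD, n = 2). At -5.39 percentage points, the difference did not exceed the SD within either group (exact two-sided permutation test, p = 0.667, where 2 against 2 libraries cannot go below 0.333). It was set by single libraries and came to 0.101 without hucMSC-Exo 1 and to -0.100 without Control 1. Per 100 kept cells of any type in the files, the same cells came to 0.945, 1.21, 0.141 and 3.40, which put the hucMSC-Exosomes mean higher by 0.694 percentage points (exact permutation p = 1). The study gives more cells for each library than the files hold, and how the deposited cells were chosen is not given in the sources used here, so shares of any kind refer to the cells in the files. Intervals cover counting error only.

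The libraries kept their order when the same 5 genes were read in other cells. Among cells with *C1qa* and *Csf1r*, a macrophage gate, 2 or more of the 5 genes were found in 28.0%, 9.46%, 3.40% and 11.2% of cells. In cells with *Ly6c2* and *Ccr2*, a monocyte gate, the shares were 40.5%, 7.63%, 2.56% and 11.5%. Control 1 was thus the highest and hucMSC-Exo 1 the lowest in all 3 myeloid classes, at their own depth.

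T cells rarely met the same criterion, in 1.25%, 1.70%, 0% and 0.16% of cells. The 0 of 504 T cells of hucMSC-Exo 1 allows a share of up to 0.729% (exact interval). T cells served as the measure of free RNA, because *S100a8* was found in 12.3% of them against 99.2% of neutrophils. Depth differed between the classes, with a median of 2127 UMIs in neutrophils, 8079 in *C1qa*-positive cells, 7269 in monocytes and 4093 in T cells. After every cell was thinned to 1000 UMIs, which left 958 of the 977 neutrophils, 6.37% of neutrophils, 2.86% of *C1qa*-positive cells, 5.31% of monocytes and 0.229% of T cells met the criterion, against 10.6%, 11.9%, 12.3% and 0.774% before. Per library, the thinned shares were 14.6%, 5.05%, 2.25% and 7.14% in neutrophils, 6.87%, 1.91%, 2.05% and 2.25% in *C1qa*-positive cells and 16.2%, 6.03%, 0% and 3.40% in monocytes. At equal depth Control 1 was still the highest in the 3 myeloid classes, while the order of the other libraries was no longer shared.

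**Figure D2:**
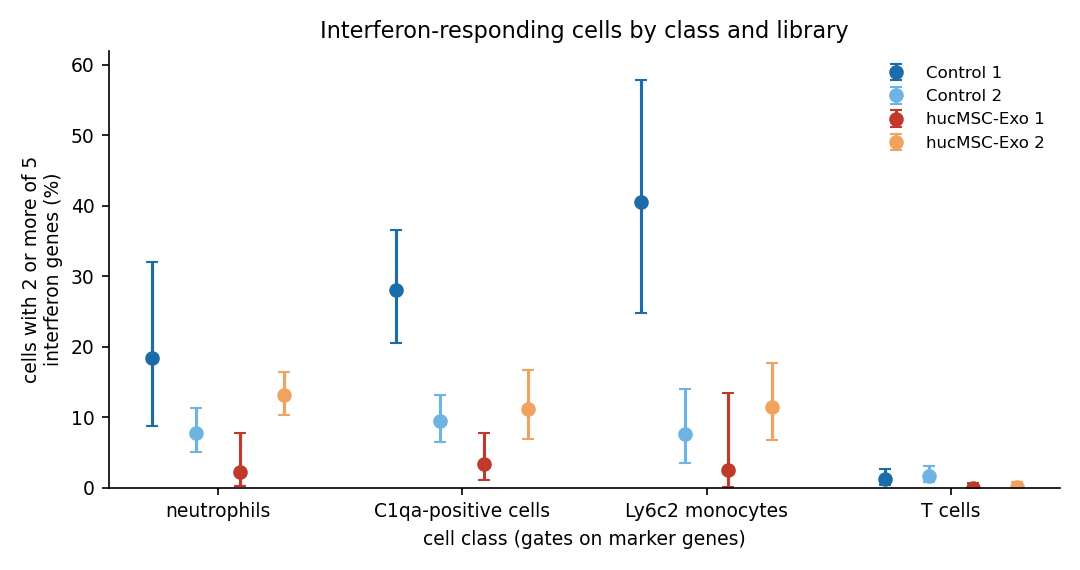
Share of cells with 2 or more of *Ifit1*, *Ifit2*, *Ifit3*, *Rsad2* and *Oasl1* (y axis, %) in 4 classes of cells, with 1 point per library and exact 95% intervals for counting error, before thinning to equal depth. Neutrophils ranged from 2.20% in hucMSC-Exo 1 to 18.4% in Control 1, and the order of the 4 libraries was the same in *C1qa*-positive cells and in *Ly6c2* monocytes at this depth.

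The interferon genes that could be read here were not found in the neutrophils. *Ifng* and *Ifnk*, the 2 listed interferon genes that the files hold, had 0 UMIs in all 977 neutrophils. *Ifng*, the type II interferon made by T and NK cells, had 200 UMIs in 85 of 2195 T cells, 32 UMIs in 5 monocytes and 2 UMIs in 2 *C1qa*-positive cells. The genes of the alpha, beta, epsilon and lambda interferons of the list were not analysed here.

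The second comparison asked which other genes differed between the interferon-responding and the other neutrophils of the same library. UMIs were summed per library and class and fitted with edgeR, with the library as a block. hucMSC-Exo 1, with 2 interferon-responding cells, was left out of the fit, so 3 libraries carry each test. Of 1628 genes tested besides those of the rule, 42 were higher (2.58% of all tested) and 6 were lower (0.369%) at an adjusted p under 0.05 in edgeR. Without adjustment 181 passed 0.05. With hucMSC-Exo 2 left out, which held 68 of the 104 cells, 31 genes were called. Without the cells that held one of the 6 macrophage transcripts, which left 2 libraries in the fit, 24 were called, all of them higher, 15 of them on the antiviral list described next. That count depended on single transcripts, and with each of the 6 in turn not used to leave out cells it ran from 24 to 63, with 15 to 20 on the antiviral list. In the fit of 48 calls, all 42 were higher in the 3 libraries, where 15.2% of all genes tested were, and all 6 were lower in the 3 libraries, where 16.3% were. The median over all genes tested was -0.05 on the log2 scale. Because the cells were chosen on 5 genes of one response, a rise of others of that response says that they were counted in the same cells and is no independent evidence for the class. A gene could also pass the filter on low counts through the class in which it was higher, so counts over the tested members of a list describe those members only.

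Antiviral effector genes were the list with the most rises, 19 of the 42. Of 50 listed, 47 were in the files and 25 passed the filter, of which those 19 rose, none fell and 6 were not called, with a median log2 fold change of 1.82. Of the 22 that did not pass, 18 had a higher summed level in the interferon-responding cells, 3 a lower one and 1 had no UMI, at no more than 29 UMIs each. These levels were summed over all libraries, with no library block. The same count over all genes below the filter was not made, so it describes these 22 only.

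*Isg15*, whose product is a ubiquitin-like protein conjugated to viral and host proteins, was counted at 3242 CPM in Control 1, 1228 in Control 2 and 636 in hucMSC-Exo 2, and at 2597 in the 2 cells of hucMSC-Exo 1. The other neutrophils held 163, 166, 100 and 110 CPM in the same libraries. The classes did not overlap, and among interferon-responding cells Control 1 was the highest and hucMSC-Exo 2 the lowest. The log2 fold change was 3.04 (SE 0.26, edgeR adjusted p = 4.38e-05). Per cell, *Isg15* was detected in 7 of 9, 18 of 25, 1 of 2 and 39 of 68 interferon-responding cells, and in 15.6% to 25% of the other neutrophils.

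*Ifit3b* rose most, from 0, 2.79 and 7.44 CPM in the other neutrophils of Control 1, Control 2 and hucMSC-Exo 2 to 213, 180 and 168 CPM. Its log2 fold change was 4.93 (SE 0.52, edgeR adjusted p = 0.000136). It lies beside *Ifit3* in the same cluster on chromosome 19, and reads of such near copies can be assigned to either, so its level cannot be fully told apart from that of the rule gene *Ifit3*. *Herc6*, an E3 ligase that attaches ISG15 in mice, went from 11.7, 2.79 and 11.2 CPM to 213, 115 and 126 CPM, a log2 fold change of 3.86 (SE 0.53, edgeR adjusted p = 0.000831). In both genes the classes did not overlap.

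Schlafen genes, a family of growth and translation regulators on chromosome 11, had 3 of their 4 tested listed members called. *Slfn5* was counted at 691, 540 and 606 CPM in the interferon-responding cells of Control 1, Control 2 and hucMSC-Exo 2, against 46.6, 48.9 and 86.5 CPM in the others, which was a log2 fold change of 3.11 (SE 0.27, edgeR adjusted p = 4.38e-05). *Slfn8* rose by 2.59 (SE 0.40) and *Slfn4* by 1.77 (SE 0.21), with edgeR adjusted p-values of 0.00202 and 0.000226. *Slfn1* lay higher in the 3 libraries without passing the threshold, at 0.87 (SE 0.23, edgeR adjusted p = 0.079).

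The oligoadenylate synthetase family, which senses double-stranded RNA, was represented by *Oasl2*, at 1594, 524 and 588 CPM against 210, 109 and 133 in Control 1, Control 2 and hucMSC-Exo 2. This was a log2 fold change of 2.30 (SE 0.23, edgeR adjusted p = 0.000124). *Oas3* rose by 1.63 (SE 0.33, edgeR adjusted p = 0.0153), and by 1.71 with an adjusted p of 0.0674 when hucMSC-Exo 2 was left out. *Oas2*, below the filter, was counted with 3, 4, 1 and 15 UMIs in the interferon-responding cells and with 2, 10, 1 and 19 in the far more numerous others.

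Among the interferon-induced transmembrane proteins, which hinder virus entry, the members differed. *Ifitm3* was counted at 3295, 3471 and 4291 CPM in interferon-responding cells of Control 1, Control 2 and hucMSC-Exo 2, against 1201, 1109 and 1586 CPM, and rose by 1.46 (SE 0.17, edgeR adjusted p = 0.000226). *Ifitm1* was at 3348, 5779 and 5528 CPM against 3591, 8024 and 6240 (log2 fold change -0.32, SE 0.16, edgeR adjusted p = 0.499), and *Ifitm2* gave -0.15 (SE 0.17, edgeR adjusted p = 0.875). The 3 genes are neighbours on chromosome 7, and of these *Ifitm3* alone passed the test. The difference between the members was not tested.

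Other effectors rose as well. *Isg20*, an exonuclease, gave a log2 fold change of 2.29, *Bst2*, which tethers virions, 2.26, *Rtp4* 1.97, *Ly6e* 1.39 and *Ifi27l2a* 1.22. *Parp14* rose by 2.43, *Trim30a* by 2.10, *Samd9l* by 1.82 and *Trim30d* by 1.72, and the edgeR adjusted p-values of these 9 genes ran from 0.000136 to 0.0170. *Trim30a* and *Trim30d* are neighbouring paralogs that can share reads. *Xaf1*, which promotes apoptosis, rose by 2.99 (SE 0.48, edgeR adjusted p = 0.00245).

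**Figure D3:**
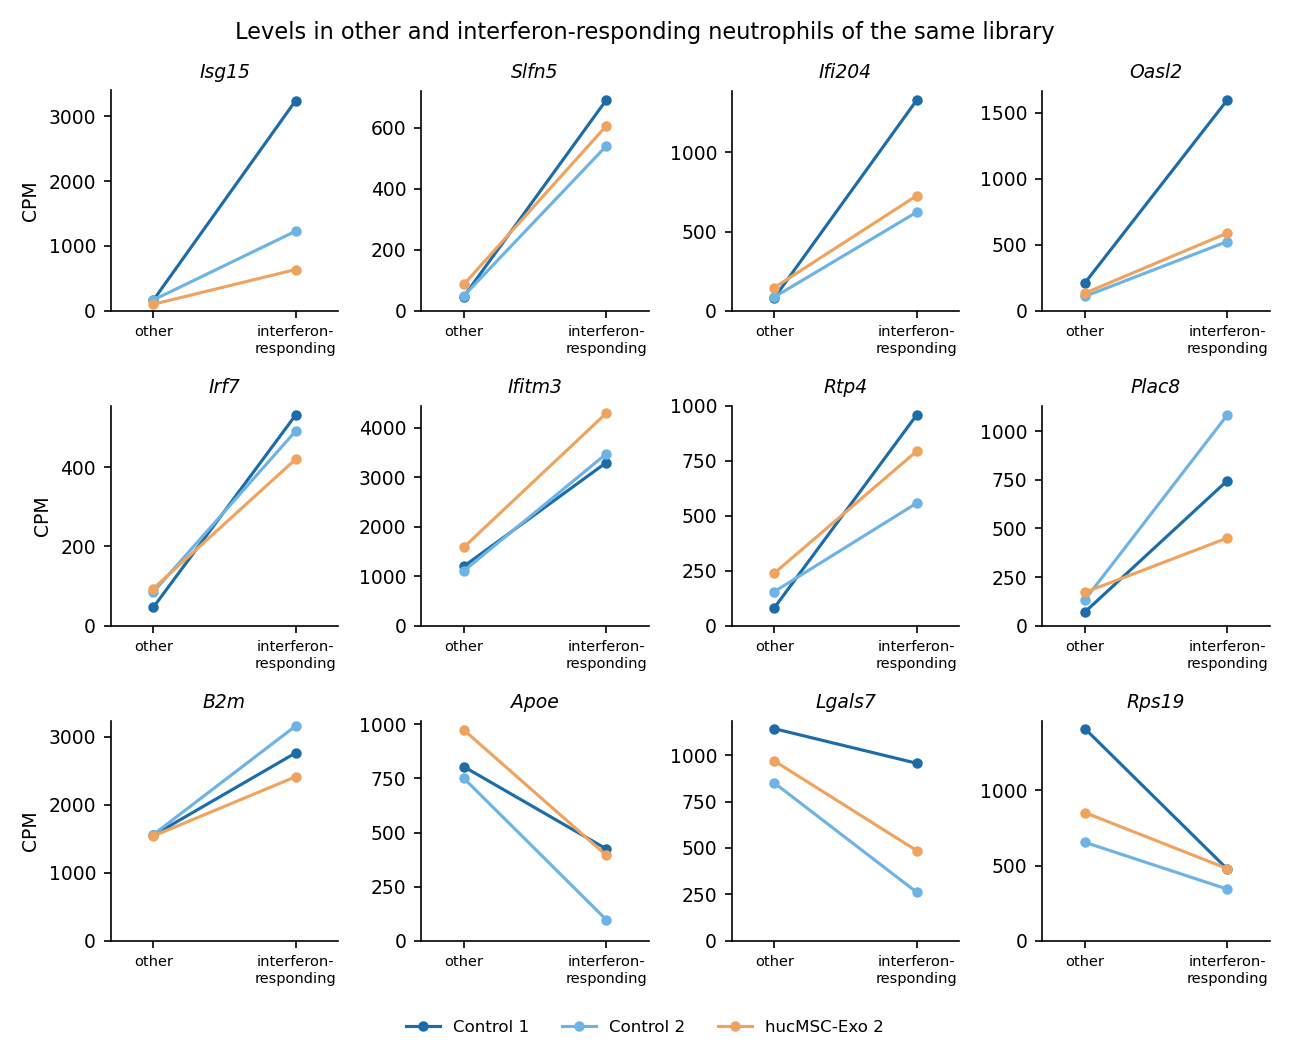
Level (y axis, CPM, starting at 0) of 12 genes summed over the other (left) and the interferon-responding (right) neutrophils of the 3 libraries tested, with a line joining the classes of 1 library. *Isg15* rose from 100 to 166 CPM in the others to 636 to 3242 CPM, while *Apoe*, *Lgals7* and *Rps19* were lower in each library.

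Interferon receptors and the signalling proteins below them were mostly not called. Of 20 genes, 13 passed the filter, 2 rose, none fell, and the median log2 fold change was 0.00. The receptor chains *Ifnar1* (-0.11, SE 0.28, edgeR adjusted p = 0.964) and *Ifnar2* (-0.28, SE 0.27, edgeR adjusted p = 0.839) and the type II receptor chains *Ifngr1* (-0.08) and *Ifngr2* (0.05) did not pass the test. *Ifnar1* stood at 266, 131 and 168 CPM in the interferon-responding cells of Control 1, Control 2 and hucMSC-Exo 2 and at 233, 173 and 165 CPM in the others, so the classes overlapped.

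*Irf7*, an interferon-induced transcription factor that drives further interferon production, rose. It stood at 531, 491 and 420 CPM in Control 1, Control 2 and hucMSC-Exo 2, against 46.6, 85.2 and 93.9 CPM. Its log2 fold change was 2.40 (SE 0.27, edgeR adjusted p = 0.000226). The classes did not overlap. *Irf9* was at 319, 98.2 and 102 CPM against 70.0, 39.1 and 40.0 (log2 fold change 1.44, SE 0.37, edgeR adjusted p = 0.0627).

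Sensors of foreign nucleic acid also rose. Of 28 listed, 24 were in the files, 6 passed the filter and 4 of these rose, with a median of 2.43. *Zbp1*, a sensor of Z-form nucleic acid that can trigger necroptosis, rose by 3.13 (SE 0.42, edgeR adjusted p = 0.000767) and *Ddx58*, which encodes the RNA sensor RIG-I, by 2.74 (SE 0.39, edgeR adjusted p = 0.00088). *Ifi204*, a DNA sensor of the IFI200 family, was counted at 1329, 622 and 726 CPM against 81.6, 86.6 and 146 in Control 1, Control 2 and hucMSC-Exo 2, a log2 fold change of 2.71 (SE 0.27, edgeR adjusted p = 0.000124). Its paralog *Ifi207* rose by 2.15, and reads can be shared within this family. *Tlr2* (0.23) and *Tlr13* (0.17), receptors for bacterial products, were not called.

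Of 34 genes for interferon-inducible GTPases, antigen processing and chemokines, 33 were in the files, 15 passed the filter and 6 rose, with a median of 0.98. *Psmb8* and *Psmb9*, subunits of the immunoproteasome, rose by 1.79 and 1.89, *Gbp2* by 1.92 and *Irgm1* by 2.21, with edgeR adjusted p-values from 0.00332 to 0.0191. For *Psmb9* the adjusted p was 0.0814 without Control 1. *B2m*, the light chain of MHC class I, stood at 2763, 3159 and 2413 CPM in Control 1, Control 2 and hucMSC-Exo 2 against 1551, 1562 and 1541, a log2 fold change of 0.77 (SE 0.17, edgeR adjusted p = 0.0266). Its rise was small beside a narrow spread, and the adjusted p was 0.171 without Control 2 and 0.145 without hucMSC-Exo 2. The class I heavy chains *H2-K1* (0.73, edgeR adjusted p = 0.101) and *H2-D1* (0.20, edgeR adjusted p = 0.819) did not pass.

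*Cxcl10*, a chemokine for CXCR3-bearing T cells, was carried by few cells. Its 70 UMIs in interferon-responding neutrophils came from 8 of the 104 cells, 24 of them from 1 cell of Control 2 and 40 from 6 cells of hucMSC-Exo 2. The summed levels were 319, 393 and 240 CPM in Control 1, Control 2 and hucMSC-Exo 2 against 34.98, 9.77 and 72.5 CPM in the others, a log2 fold change of 2.87 (SE 0.55, edgeR adjusted p = 0.0101). With the cells of over 3000 genes kept, the adjusted p was 0.117. *Cxcl9*, below the filter, had 17 UMIs in the 25 cells of Control 2 and 7 in the 68 of hucMSC-Exo 2, and none in the other 2 libraries.

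**Figure D4:**
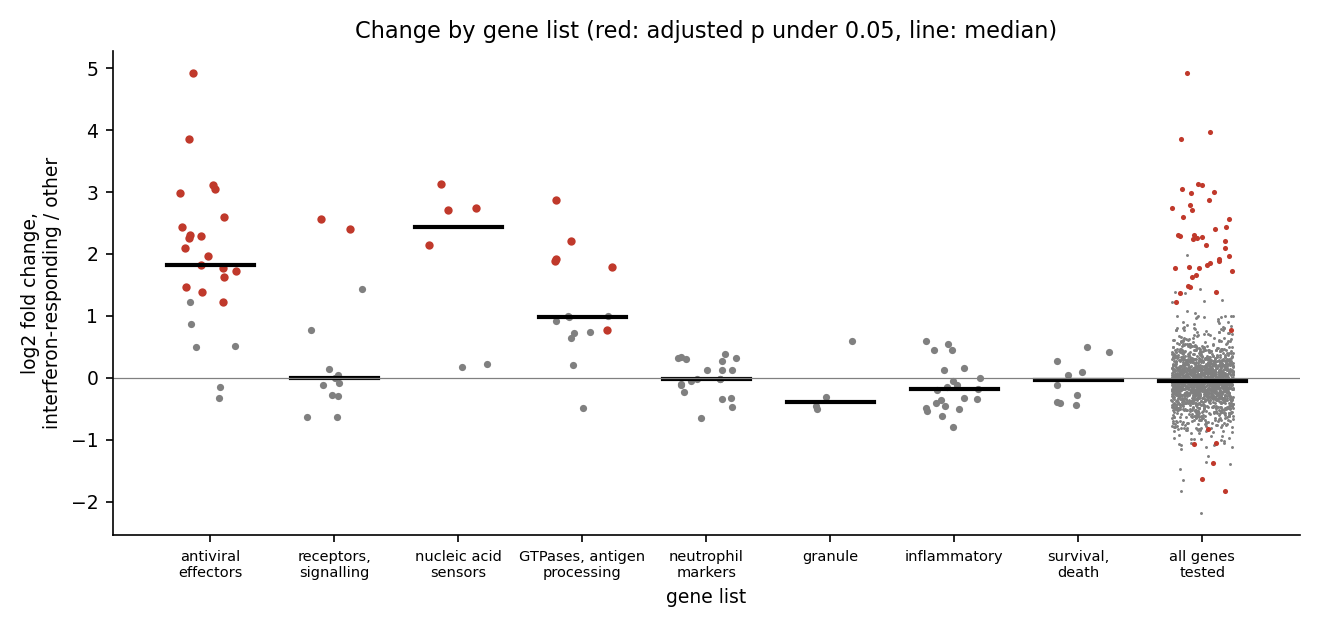
Log2 fold change between interferon-responding and other neutrophils of the same library (y axis, edgeR, 3 libraries) for the tested genes of 8 lists and for all 1628 genes tested, with genes at an adjusted p under 0.05 in red and the median as a line. The antiviral effectors had a median of 1.82 and 19 of 25 in red, while the neutrophil marker, granule, inflammatory and survival lists had none in red.

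Of the 42 genes that rose, 31 were in these lists and 11 were not. Several of the 11 are known interferon-induced genes. *Ddx60* stood at 372, 180 and 162 CPM in Control 1, Control 2 and hucMSC-Exo 2 against 0, 9.77 and 13.0 CPM (log2 fold change 3.97, SE 0.46, edgeR adjusted p = 0.000226), *Trafd1*, a regulator of innate signalling, rose by 2.78 (SE 0.34, edgeR adjusted p = 0.0003) and *Rnf213* by 2.31 (SE 0.32, edgeR adjusted p = 0.00088). *Gm13822* rose by 3.01 (SE 0.37, edgeR adjusted p = 0.0003), and lies antisense to *Oasl1* with its start inside that gene (chromosome 5, 114917318 to 114923277 on the minus strand against 114923240 to 114937915 on the plus strand in GRCm38). Without a stated strand setting its reads and those of the rule gene *Oasl1* cannot be told apart where they overlap.

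*Plac8* and *Ly6c2*, genes that monocytes and young neutrophils express, were among the other rises. *Plac8* stood at 744, 1080 and 450 CPM in Control 1, Control 2 and hucMSC-Exo 2 against 70.0, 133 and 171, a log2 fold change of 2.28 (SE 0.34, edgeR adjusted p = 0.00133). *Ly6c2* went from 81.6, 65.6 and 142 CPM to 159, 540 and 294 CPM, a log2 fold change of 1.78 (SE 0.40, edgeR adjusted p = 0.0266). Without Control 2 the rise of *Ly6c2* was 1.02 (edgeR adjusted p = 0.171), and without the cells that held a macrophage transcript the value was -0.16 (edgeR adjusted p = 0.980). With *Csf1r* not used to leave out cells it was 1.78 (edgeR adjusted p = 0.00745). *Plac8* was called without Control 2 and without those cells. The other rises were *Ctss*, *Shisa5*, *Tor1aip1*, *Parp10* and *9930111J21Rik2*, by 1.36 to 2.24. The edgeR adjusted p was 0.0931 for *Ctss* without Control 2, 0.445 for *Shisa5* without hucMSC-Exo 2 and 0.0875 for *Parp10* without Control 1.

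None of the tested genes of neutrophil identity and inflammation passed the test. Of 20 tested neutrophil markers outside the rule none was called, with a median log2 fold change of -0.02. *Trem1*, an amplifier of inflammation, gave -0.02 (SE 0.21, edgeR adjusted p = 0.998) and the decoy receptor *Il1r2* 0.30 (SE 0.17, edgeR adjusted p = 0.605). None of the 4 granule genes that passed the filter of the 13 in the files was called (median -0.38). Nor was any of 22 inflammatory genes (median -0.19) or of 10 survival and death genes (median -0.03). Of 6 inflammatory genes below the filter, *Arg1* and *Nos2* among them, 4 had a higher summed level in the interferon-responding cells and 2 a lower one. That count, too, was made on sums over all libraries and describes these 6 genes only.

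*Il1b* stood at 7972, 6679 and 4189 CPM in Control 1, Control 2 and hucMSC-Exo 2 against 10692, 4993 and 4697, a log2 fold change of -0.11 (SE 0.19, edgeR adjusted p = 0.95). *Cd274*, which encodes PD-L1, was at 531, 655 and 336 CPM against 338, 345 and 239, higher in the 3 libraries without passing the test (0.65, SE 0.23, edgeR adjusted p = 0.236). A p above the threshold does not show that these levels were equal.

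The study names neutrophil genes for its migrating and proliferating subtypes and others as raised after hucMSC-Exosomes. Of these genes, none that was tested here was called. *Retnlg*, a gene of the rule, was not tested. It stood at 213, 327, 0 and 1999 CPM in the interferon-responding cells of the 4 libraries. The other neutrophils held 1166, 581, 778 and 1029 CPM, with no common order between the classes. *Slc2a3*, a glucose transporter, was at 372, 491 and 570 CPM against 245, 350.5 and 363 in Control 1, Control 2 and hucMSC-Exo 2 (log2 fold change 0.55, SE 0.22, edgeR adjusted p = 0.309). *Bcl2a1b*, a survival gene, gave -0.39 (SE 0.24, edgeR adjusted p = 0.664). The chemokine genes *Ccl6* (-0.50), *Ccl3* (-0.45), *Cxcl3* (-0.41) and *Ccl4* (0.45) and the genes *Il1rn* (0.12) and *Cd33* (-0.33) had edgeR adjusted p-values from 0.546 to 0.962.

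The 6 genes that fell were *Apoc1*, *Apoe*, *Krt17*, *Krt14*, *Lgals7* and *Rps19*, none of them in the interferon lists. *Apoe*, an apolipoprotein that macrophages express, stood at 425, 98.2 and 396 CPM in Control 1, Control 2 and hucMSC-Exo 2 against 805, 751 and 974 CPM (log2 fold change -1.64, SE 0.28, edgeR adjusted p = 0.00423). *Lgals7*, a galectin of keratinocytes, was at 957, 262 and 486 CPM against 1143, 850 and 969 (-1.07, SE 0.23, edgeR adjusted p = 0.0235). The keratin genes *Krt17* and *Krt14* fell by 1.38 and 0.83, *Apoc1* by 1.82 and the ribosomal protein gene *Rps19* by 1.05, with edgeR adjusted p-values from 0.0191 to 0.0443.

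Keratinocyte markers were lower in the same cells, and 5 of the 6 falls lost the call when 1 library was left out. The 5 keratinocyte markers, *Krt14* among them, summed to 1913, 737, 1039 and 1026 CPM in interferon-responding neutrophils of the 4 libraries, and to 2449, 1558, 2609 and 1540 CPM in the others, with *Krt14* in at least 71.6% of the kept cells of every library. Their part in the falls was not tested. Without Control 2 the adjusted p was 0.171 for *Krt17*, 0.242 for *Krt14* and 0.125 for *Lgals7*. It was 0.315, 0.467, 0.335 and 0.116 for *Krt17*, *Krt14*, *Lgals7* and *Rps19* without hucMSC-Exo 2, and 0.0779 and 0.101 for *Krt17* and *Apoc1* without Control 1. Without the cells of the 10% highest doublet scores no gene was called lower, and *Apoe* stood at -0.85 (edgeR adjusted p = 0.278).

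Summed over the libraries, the level of interferon-induced genes differed with the number of rule genes detected. *Isg15* was counted at 102 CPM in neutrophils with none of the 5 interferon genes, 222 with 1, 329 with 2, 1088 with 3 and 2362 with 4 or 5. Within Control 2 the steps were 143, 280, 455, 1897 and 2771 CPM, and within hucMSC-Exo 2 they were 70.9, 188, 287, 591 and 1651 CPM. Control 1 did not follow that order, with 130, 303, 0, 4569 and 3451 CPM, from 2, 4 and 3 cells at the last 3 steps, and hucMSC-Exo 1 had 2 cells in the class. *Irf7* stood at 69.1, 141, 238, 326 and 1099 CPM over the same steps, all libraries summed. In these sums the cells just outside and just inside the rule thus differed less than the cells with 2 and those with 4 or 5 genes. *Cxcl10* was at 50.9 and 21.5 CPM with none and 1, had 0 UMIs in the 46 cells with 2 genes, and stood at 97.9 CPM with 3 and 1242 CPM with 4 or 5, the last from 6 of 22 cells.

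The number of antiviral effector genes detected per cell followed the same steps. Neutrophils with none of the 5 genes had a median of 6 of the 47 antiviral list genes, those with 1 had 9, and those with 2, 3, 4 and 5 had 11.5, 17, 18.5 and 23.5. Median depth at these steps was between 2031.5 and 2230 UMIs. Thinned to 1000 UMIs, the medians were 4, 6, 9, 11, 12 and 16.5. Interferon-responding cells as a class held a median of 15 (3 to 27) and the other neutrophils 7 (1 to 24), so some cells outside the rule carried as many as those inside it. Since the steps were defined by genes of the same response, these values are a description.

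**Figure D5:**
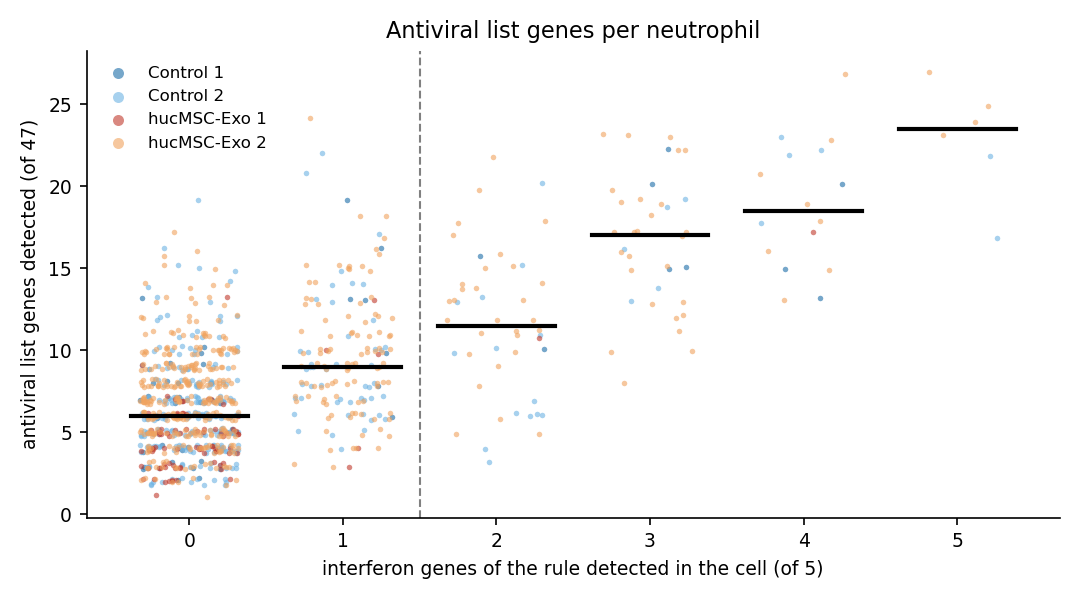
Number of antiviral list genes detected in each of 977 neutrophils (y axis, of 47) against the number of the 5 interferon genes of the rule detected in the same cell (x axis), 1 point per cell with small random offsets, coloured by library, with medians as lines and the rule as a dashed line. The median rose from 6 in cells with none to 23.5 in cells with all 5.

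Outside the class, the level of interferon-induced genes also varied between libraries. In the other neutrophils *Ifi27l2a* was counted at 1003 CPM in Control 1, 688 in Control 2, 78.9 in hucMSC-Exo 1 and 1068 in hucMSC-Exo 2. *Slfn4* was at 583, 299, 137 and 454 CPM and *Rtp4* at 81.6, 155, 36.8 and 239 CPM. hucMSC-Exo 1, the library with the fewest interferon-responding cells, was the lowest for each of these 3 genes, which were chosen after their values were seen. The 25 tested antiviral genes had passed a filter on counts of Control 1, Control 2 and hucMSC-Exo 2, without hucMSC-Exo 1. Among them hucMSC-Exo 1 was the lowest in 16, Control 1 in 6, and hucMSC-Exo 2 was the highest in 15. The same count over all genes tested was not made, so these numbers describe the 25 genes only. *Isg20* went the other way, at 140, 124, 153 and 119 CPM, and *Isg15* was the lowest in hucMSC-Exo 2. The median share of the antiviral list per cell was 11845, 18910, 12382 and 17311 CPM, lowest in Control 1. A large part of it was *Ifitm1* and *Ifitm2*, which were not called between the classes. Their summed levels in the other neutrophils were 3591, 8024, 4386 and 6240 CPM and 4116, 7111, 5170 and 6083 CPM. The order of this share therefore need not hold for the rest of the list.

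Whether hucMSC-Exosomes changed genes within interferon-responding neutrophils was not tested, because 1 library of that group held at least 5 such cells. What could be fitted was whether the difference between the classes differed between hucMSC-Exo 2 and the 2 control libraries. No gene of 1628 was called by edgeR (0.0%), where 28 passed 0.05 without adjustment. DESeq2 also called none, with 3 that passed 0.05 without adjustment. *Saa3* had the smallest p, with a difference of -3.67 (SE 0.71, edgeR adjusted p = 0.960), followed by *Cxcl10* (-3.06, SE 0.82) and *Plac8* (-1.75, SE 0.51), both with an edgeR adjusted p of 1.00. With 1 library on one side, this comparison concerns that mouse.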

How the data were processed

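Droplet single-cell RNA of 4 libraries was used as deposited: the authors' UMI counts per gene and cell, made with Cell Ranger 6.1.2 on mm10 per the labels and the paper. Doublet removal before deposit and the strand setting are not given in the sources used here. The study's cell filter was used (200 to 3000 genes, no more than 10% of UMIs mitochondrial). Members and gene lists were chosen with earlier results of these data known. Doublet scores came from Scrublet in scanpy 1.11.5 and removed no cell.

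Raw counts were summed per library and class, where both classes held at least 5 cells, and tested with edgeR 4.0.16 (quasi-likelihood, TMM, filterByExpr, library block) with Benjamini-Hochberg adjustment over all genes tested, at 0.05. The 16 rule genes stayed in library sizes and out of the tests. SE is the log2 fold change divided by the square root of F. The fits were tested on simulated data. Libraries held 1098 to 2422 cells and 6657095 to 16950639 UMIs. The 104 members held 18817 and 61086 UMIs in Control 1 and 2, and 3851 and 166615 in hucMSC-Exo 1 and 2, where 1 UMI is 53.1, 16.4, 259.7 and 6.00 CPM. Named genes were those of the rule, the lists and the neutrophil genes that the paper names. To these were added, among called genes that moved one way in every library, the 15 largest rises and 10 largest falls. Some genes are not reported here. Others named with values were chosen after the values were seen. Alternatives changed the rule, cells, depth, test, filter and libraries. Positions are from GENCODE vM21 (GRCm38).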

Additional observations from a re-analysis of the deposited data

How the results depend on the processing

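The share of neutrophils that were interferon-responding differed between the groups by -5.39 percentage points, by -3.48 to -7.48 under 7 other settings of the rule and cells, by 0.694 over all kept cells, and by -10.9 to 0.101 with 1 library left out. No share test could pass 0.05 with 2 libraries a group. Taking the replicate numbers of the titles as a replicate block gave pairs of -16.2 and 5.39 percentage points, the same mean of -5.39 and p = 1 (exact permutation test). The labels tie the numbers to no shared animal or day, and deviations of same-numbered libraries over 2167 genes correlated at 0.09 in the other neutrophils.

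The count of genes called between the classes was 48. It was 18 after thinning to 1000 UMIs (549 genes tested), 17 when 1 random set of 2 of the UMIs chose the cells and the other was tested (701 genes), 28 without the library block, 77 without the filter on low counts and 31 to 67 with 1 library left out. The other settings gave 36 to 52, and libraries with 10 or more cells gave the fit without Control 1. Chosen after seeing the data, a fit of all 4 libraries gave 46 calls and one without cells holding a macrophage transcript, which left 2 libraries, 24. With each of the 6 transcripts in turn not used there, the count was 63 without *Csf1r*, 48 without *Apoe* (3 libraries), 30 without *C1qb* and 24 without each of the others. No antiviral list gene was called lower in any setting other than *Ifitm1* in that without *Csf1r*, and 9 to 25 were called higher. *Isg15*, *Slfn5*, *Ifi204*, *Irf7*, *Isg20*, *Oasl2*, *Ifitm3*, *Ly6e*, *Rtp4* and *Slfn4* were called in the 16 alternatives and in those 6. The falls were less stable: *Apoe* came to 0.27 after thinning, *Krt17* to 0.52 without cells holding a macrophage transcript and *Krt14* to 0.13 with cells of over 3000 genes kept, and of the rises *Ly6c2* came to -0.16 without cells holding a macrophage transcript. The cause was not tested. The difference of the contrast between the groups gave 2 calls under a neutrophil gate of 5 genes, 1 without the filter on low counts and 0 under the other settings, and could not be fitted on 2 libraries. The comparison of the groups within the class and its alternatives were not run. The 104 cells limit all values, since a count of 0 allows up to 3 UMIs in a class.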

Other observations

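Ribosomal protein genes, which encode the protein part of ribosomes, were examined after their values were seen. Of 82 such genes 79 were tested, and 1, *Rps19*, was called lower in interferon-responding neutrophils. The log2 fold change was below 0 for 78 of the 79, and 48 were lower in the 3 libraries, where 16.3% of all genes tested were. Their median was -0.51, against -0.05 for all genes tested. The median depended on which cells entered, at -0.31 without the cells of the 10% highest doublet scores, -0.22 without cells holding a macrophage transcript and 0.05 with cells of over 3000 genes kept. The cause was not tested.

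The 2 interferon-responding cells of hucMSC-Exo 1, which entered no gene test, had 11 and 17 of the 47 antiviral list genes. Their summed levels were 6232 CPM of *Ifitm3*, 2856 CPM of *Slfn4* and 1298 CPM of *Rtp4*, against 663, 137 and 36.8 CPM in the 89 other neutrophils of the library, each above the 779 CPM that 3 UMIs make in these 2 cells. *Ifi27l2a*, *Slfn5* and *Irf7* had 0 UMIs in both cells, which this depth cannot tell from the levels in the other libraries for *Slfn5* and *Irf7*.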
